A study of Drosophila melanogaster with 4 samples.

Results

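The left arm of chromosome 2 (2L) of Drosophila melanogaster was examined for histone H3 dimethylated at lysine 27 (H3K27me2) in chromatin of adult heads. Regions of significant enrichment on 2L were taken where their midpoint lay outside the last 2 Mb of the arm, so that the sequence nearest the centromere was left out. Of the regions listed for the whole genome, 1484 of 10114 in ChIP replicate 1, 1516 of 10115 in ChIP replicate 2 and 2649 of 16728 in the list of the series met this rule. They lie in the first 21011544 bp of an arm of 23011544 bp, in coordinates of FlyBase release 5. The word euchromatin stands here for position alone, since the lists hold no marker of heterochromatin.

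Methylation of H3 at lysine 27 is placed by Polycomb repressive complex 2, whose catalytic subunit in flies is E(z). The trimethylated form marks genes silenced by Polycomb, whereas the dimethylated form is known as the widespread form, found over much of the silent and intergenic genome and low over transcribed genes. The lists used here come from an antibody labelled for the dimethylated form, and its specificity could not be checked from them.

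The samples were 2 ChIP libraries and 2 inputs from head nuclei of wild-type Oregon-R flies (Oregon-R-modENCODE), labelled as mixed adults, and the antibody was Ab24684. The labels name no treatment or mutant, and they give neither the sex ratio nor whether the replicates came from separate collections, so that their spread measures at least the technical error and perhaps no more. Heads hold neurons, glia, eye, muscle and fat cells, and each map is a sum over them. The lists hold no expression values, so the tissue label could not be checked against markers, and no annotation of release 5 was used, so genes are not named.

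Enriched regions covered 17.8% of 2L according to replicate 1 and 17.4% according to replicate 2, which gives 17.6% ± 0.247 (mean ± SD, n = 2). These shares came from 3.74 Mb and 3.66 Mb of covered sequence, or 70.6 and 72.2 regions per Mb. The replicates thus called almost the same amount of 2L. Their lists for the whole genome were also almost equal in number, with 10114 and 10115 regions. How these lists were cut is not stated, so the similar cover is no measure of agreement. The regions were short, with median lengths of 1909 and 1890.5 bp in the replicates, and the longest had 32256 and 19619 bp. Each region carries a score given by the authors with no stated scale. The median score on 2L was 0.64 in replicate 1 (lowest 0.34, highest 1.20) and 0.60 in replicate 2 (0.31 to 1.01).

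The scores could be read as log2 ratios of whole numbers after adding 1 constant per list (0.39 in replicate 1, -0.0058 in replicate 2, 0.18 in the series' list), which held for 100% of the scores in each list. The numerator is taken to count reads of the ChIP library and the denominator those of its input, although no header states it. On this reading the median 2L region of replicate 1 had a ratio of 2.04, that of replicate 2 a ratio of 1.51 and that of the series a ratio of 1.53, before any scaling for library size. The ratios are in lowest terms, with medians of 209 ChIP and 105 input reads in replicate 1 and of 202 and 137 in replicate 2. The counting error of a score was then at most 0.17 in replicate 1 and 0.16 in replicate 2 for the median region, whereas this upper limit was 0.022 to 0.070 for the 10 longest regions of the series' list. These errors cover counting only, and library totals are unknown.

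Arm 2L was covered less than the long arms of chromosome 3. With the 2 Mb nearest the centromere left out there too, 3L was covered to 20.2% and 20.0% in replicates 1 and 2, and 3R to 20.8% and 19.9%. The difference of 2L from the mean of 3L and 3R was -2.71 percentage points in replicate 1 and -2.52 in replicate 2, or -2.62 ± 0.135 (mean ± SD, n = 2). Both replicates gave the same order of 2L below 3L and 3R. An exact sign-flip test over 2 replicates cannot give a two-sided p below 0.5, so the difference is a description. Regions were somewhat shorter on 2L, with median lengths of 1909, 1986.5 and 1983 bp on 2L, 3L and 3R in replicate 1, of 1890.5, 1929.5 and 1942 bp in replicate 2 and of 2096, 2199 and 2299 bp in the series' list. Median scores of replicate 1 were 0.64 on each of the arms, and those of replicate 2 were 0.60 on each. In the replicates the lower cover of 2L went with fewer regions per Mb, 70.6 against 78.3 on 3L and 78.6 on 3R in replicate 1, and 72.2 against 81.0 and 80.3 in replicate 2. The series' list had the opposite order, with 126.1 regions per Mb on 2L against 121.7 on 3L and 118.4 on 3R, although it too covered less of 2L (41.2% against 43.5% on both other arms).

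The arm was next divided into 210 full windows of 100 kb. The share of a window in enriched regions had a median of 15.6% in replicate 1, with extremes of 0 and 64.4%, and a median of 15.9% in replicate 2, with extremes of 0 and 71.3%. In the middle of the distribution, between the percentiles 25 and 75, windows held 9.06% to 24.3% in replicate 1 and 7.73% to 23.6% in replicate 2. The map was therefore uneven at this scale, with an SD between windows of 12.6 and 12.9 percentage points, close to 0.710 and 0.738 times the mean. Neighbouring windows resembled each other weakly, with a Pearson r of 0.227 and 0.209 between a window and the next, and of 0.0413 and 0.0191 between a window and the next but one. These r values describe 1 arm, whose windows share their libraries. Rich and poor stretches on 2L were accordingly mostly 1 window wide.

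**Figure D1:**
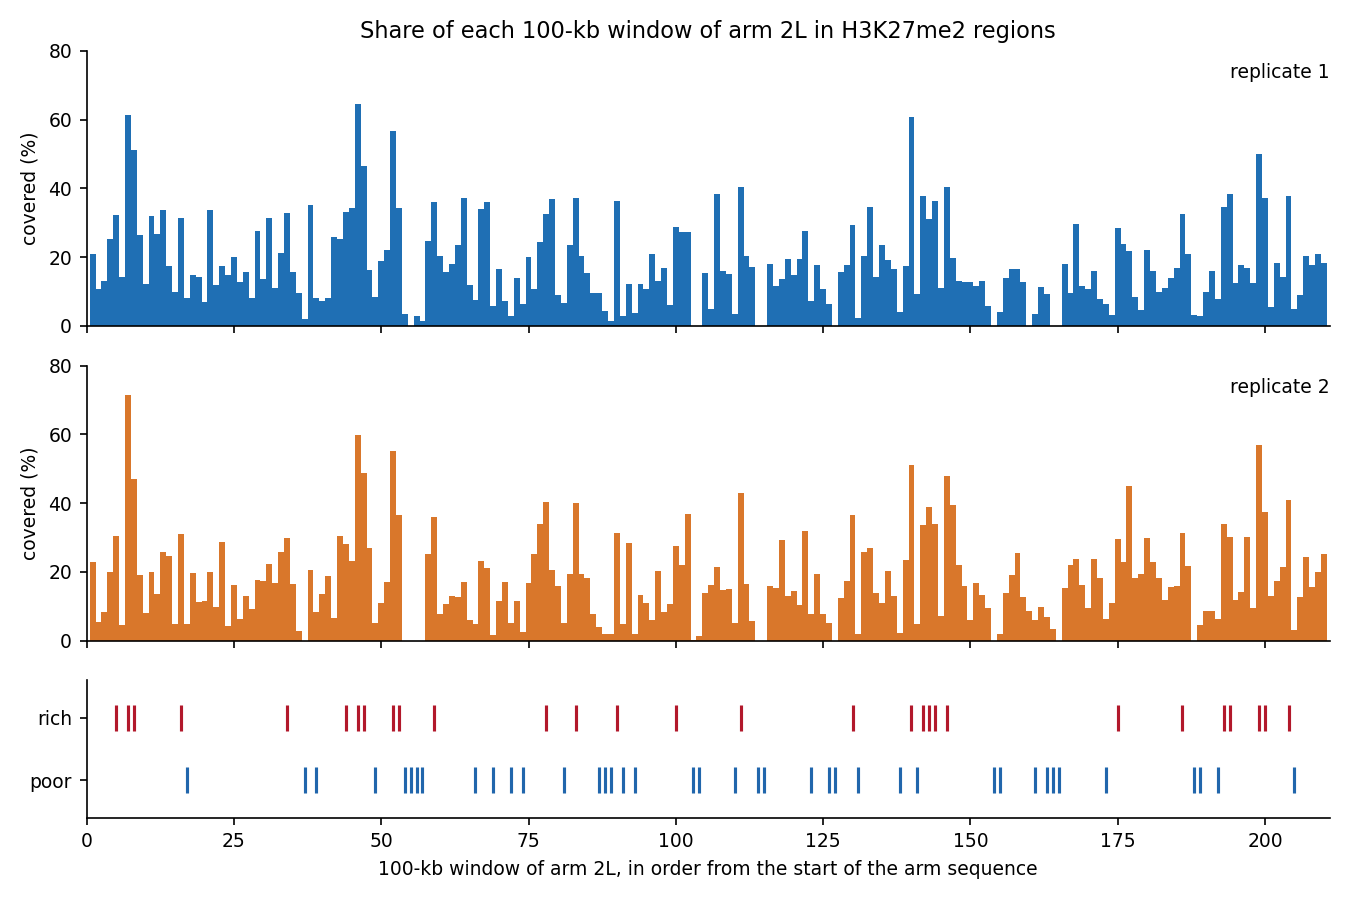
Share of each of the 210 windows of 100 kb on arm 2L that lies in enriched regions, for replicate 1 (top, percent) and replicate 2 (middle, percent), with the windows that are rich or poor in both replicates marked below. Windows are numbered in order from the start of the arm sequence. The tallest bar of replicate 1 (64.4%) and that of replicate 2 (71.3%) are different windows, and each is the second tallest in the other replicate (59.8% and 61.4%).

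A window was called rich where its cover reached the percentile 75 of all windows of 2L, 3L and 3R in the same replicate (27.8% in replicate 1 and 27.2% in replicate 2) in both replicates, and poor where it was at or below the percentile 25 (9.54% and 8.56%) in both. Rich windows numbered 29 of 210 on 2L, or 13.8%, against 18% of the windows of the 3 arms. The shares were 18.7% on 3L and 20.8% on 3R, so 2L had the lowest share of the 3 arms, a description without a test. Poor windows numbered 40 of 210, or 19.0%, against a background of 18.3%, and the shares were 17.3% on 3L and 18.5% on 3R. The share of poor windows on 2L was thus near the background. Taken alone, replicate 1 had 42 rich and 57 poor windows on 2L and replicate 2 had 40 and 58. No window was rich in one replicate and poor in the other.

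By the mean of the replicates the richest window spanned 600001 to 700000, where 61.4% was covered in replicate 1 and 71.3% in replicate 2. The adjacent window, from 700001 to 800000, held 51.0% and 47.1% and had rank 6 by the mean. Both lie near the distal end of the arm, and they form a pair of rich neighbours covered to 57.7% ± 2.13 (n = 2). The second pair spanned 4500001 to 4700000, with windows covered to 64.4% and 59.8% (the first of them the highest of all in replicate 1) and then to 46.6% and 48.8% in replicates 1 and 2. The next pair, from 5100001 to 5300000, was covered to 45.5% and 45.8%, and its first window alone to 56.7% and 55.1%. Taken as pairs, the stretches named so far had an SD between replicates of at most 2.13 percentage points.

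The other windows among the 10 richest lay farther along the arm. The window from 13900001 to 14000000 held 60.6% in replicate 1 and 51.1% in replicate 2. The window from 19800001 to 19900000 was covered to 49.9% and 56.9%, and the series' list covered 92.4% of it, the largest share of any of the 210 windows. Lower in the order came the windows from 14500001 to 14600000 (40.3% and 47.8%), from 11000001 to 11100000 (40.4% and 42.8%) and from 20300001 to 20400000 (37.7% and 41.0%). The order within the 10 richest is not firm, since the SD between replicates reached 7.01 percentage points in a window.

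Rich windows seldom formed blocks. Only 1 run of at least 3 rich windows was found on 2L, from 14100001 to 14400000, covered to 35.1% in replicate 1 and 35.4% in replicate 2 by 38 and 34 regions. On 3L there were 2 such blocks and on 3R there were 3, with longest runs of 5 windows each. Besides the pairs named above, neighbouring pairs of rich windows lay at 19200001 to 19400000 (36.4% and 32.0%, SD 3.06) and at 19800001 to 20000000 (43.5% and 47.1%, SD 2.51). These SDs were larger than those of the pairs named above. The 29 rich windows of 2L fell into 22 separate runs, of which 6 held more than 1 window. On 3L 8 of 30 runs did so and on 3R 10 of 37, shares close to that of 2L.

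Poor windows formed 3 blocks of at least 3 windows. The longest was the stretch of 4 windows from 5300001 to 5700000, where replicate 1 had 5 regions covering 1.98% and replicate 2 had no region. It starts where the rich pair from 5100001 to 5300000 ends. By the mean of the replicates, that pair was covered to 45.7% and this block to 0.990%. The windows that meet at the border were covered to 35.4% and 1.76%. The block from 8600001 to 8900000 was covered to 5.01% and 2.63%, and the block from 16200001 to 16500000 to 3.05% and 3.40%. The list of the series, which is wider than both replicates, covered 7.44%, 16.8% and 8.92% of the 3 blocks, against 41.2% of the arm.

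In 6 windows no base was covered in either replicate, and 4 of these held none in the series' list either. The 4 empty windows were 5400001 to 5500000, 11300001 to 11400000, 12600001 to 12700000 and 16400001 to 16500000. The remaining windows without replicate cover, 11400001 to 11500000 and 15300001 to 15400000, had 0.688% and 5.09% in the series' list. The next lowest lay side by side at 10200001 to 10300000 and 10300001 to 10400000, where replicate 1 had none and replicate 2 had 0.139% and 1.34%. The windows from 5600001 to 5700000 and from 3600001 to 3700000 completed the 10 lowest, with 1.42% and 2.04% in replicate 1 and none in replicate 2. The lowest windows were thus spread over the arm between 3.6 and 16.5 Mb. An empty window is sequence without a call, since the lists give no account of alignable sequence.

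These empty windows lie in the longest gaps between regions. In the series' list the gap from 11284028 to 11499312 (215285 bp) was followed by those from 5351352 to 5552686 (201335 bp), from 16340290 to 16508902 (168613 bp), from 12563986 to 12715779 (151794 bp) and from 3529099 to 3625545 (96447 bp), and neither replicate had a base in any of them. In that list gaps over 50 kb numbered 26 and took up 10.5% of the sequence, whereas the median gap was 1336.5 bp. Replicate 1 had 62 such gaps (25.7% of the sequence, median gap 4527 bp) and replicate 2 had 69 (29.7%, median 3937.5 bp). The replicates had their longest gaps in different places. That of replicate 1 ran for 247324 bp from 10197920 to 10445243, and replicate 2 covered 2.02% of it. The longest gap of replicate 2 ran for 437387 bp from 5270550 to 5707936, and replicate 1 covered 2.23% of it.

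In the replicates, rich windows differed from poor ones in the number of regions more than in their length. In replicate 1 a rich window held 13.2 regions on average, a poor window 2.0 and any other window 7.24. In replicate 2 the averages were 13.7, 1.48 and 7.50. The median length in rich windows was 2072.5 and 2122 bp in the replicates, and in poor windows 1695.5 and 1740 bp. The series' list gave another picture, with 12.8 regions on average in a rich window, 6.65 in a poor one and 14.3 in any other. Median lengths there were 3150.5, 1713 and 2086 bp, so rich windows held fewer but longer regions than the other windows. Since windows were ranked by their cover in the replicates, number and length are parts of the ranking and no test was made. The score did not enter the ranking directly. It was tied to length, however, with a Spearman's rho of 0.559 on 2L in both replicates, so it was not independent of the ranking. Its median was 0.65 in rich and 0.62 in poor windows in replicate 1, and 0.62 and 0.60 in replicate 2. Across windows with a region, cover and median score had a Pearson r of 0.340 in replicate 1 (200 windows) and 0.180 in replicate 2 (198 windows). In the series' list the median score was 0.46 in rich and 0.41 in poor windows. Only regions already called as enriched carry a score, so these medians do not compare the windows as a whole.

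At a coarser scale, in 7 segments of 3 Mb, cover was higher at both ends of the arm than in parts of its middle. The first segment held 21.3% in replicate 1 and 18.2% in replicate 2, and the second, from 3000001 to 6000000, held 21.9% and 19.8%. The third held 17.8% and 15.3%, and the fourth, from 9000001 to 12000000, 14.3% and 14.4%. In the fifth the cover was 19.6% in both replicates. The sixth, from 15000001 to 18000000, had the lowest mean, with 11.3% and 15.3%, and the seventh 18.2% and 19.4%. The fourth and the sixth segments were thus the poorest in the mean, with 2 and 1 of the 29 rich windows and with 7 poor windows each. The third held 3 rich windows and more poor ones, 8. In replicate 2 the third and the sixth were alike and the fourth was the lowest. In the series' list the third had the lowest cover, 36.8%, against 38.1% in the fourth and 37.4% in the sixth. The second held both 7 rich and 7 poor windows, so its mean covers neighbours of opposite kinds.

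The replicates differed in a graded way along 2L. Replicate 1 exceeded replicate 2 by 3.06, 2.15 and 2.50 percentage points in the first 3 segments, was nearly equal to it in the fourth and the fifth, and fell below it in the sixth and seventh (-3.96 and -1.21). In the first 105 windows, up to 10.5 Mb, replicate 1 was higher in 67 windows and replicate 2 in 37, and the mean cover was 19.3% against 17.2%. In the last 105 windows the numbers were 49 and 51, and the mean cover was 16.3% against 17.7%. Spearman's rho between position and the difference was -0.315 over the 210 windows of 2L, -0.216 over the 225 windows of 3L and -0.0932 over the 259 windows of 3R, with each arm read from its distal end and no test made. On 3R the mean difference was similar in both parts of the arm, 0.867 and 0.928 percentage points, whereas it changed sign on 2L (2.12 and -1.39) and on 3L (1.71 and -1.33). In replicate 1 the median score also went from 0.67 in the first segment to 0.63 in the last, and in replicate 2 from 0.61 to 0.60. Replicate 1 thus put the higher cover in the distal part of 2L and replicate 2 in the proximal part. The cause of this tilt was not tested.

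**Figure D2:**
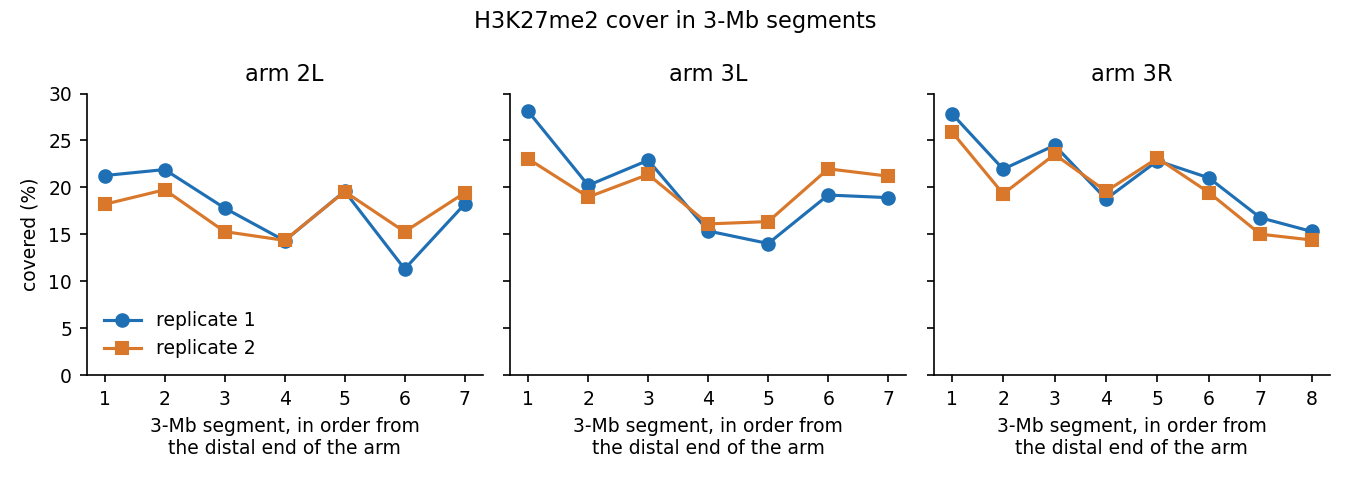
Share of each 3-Mb segment in enriched regions (percent) for replicate 1 (circles) and replicate 2 (squares) on arms 2L, 3L and 3R, with segments in order from the distal end of each arm. On 2L replicate 1 is higher in the first 3 segments and lower in the sixth and seventh, by 3.06 and -3.96 percentage points at the extremes.

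Despite this tilt the replicates ranked the windows of 2L alike. The Pearson r of cover between them was 0.851 and Spearman's rho 0.812 over 210 windows, against an r of 0.828 on 3L and 0.888 on 3R. Windows share their libraries and their neighbours, so these values carry no p. The replicates differed by over 10 percentage points in 30 of the 210 windows. The 5 largest differences were in the windows from 17600001 to 17700000 (21.8% in replicate 1 and 44.9% in replicate 2), 6300001 to 6400000 (37.3% and 17.1%), 14600001 to 14700000 (19.8% and 39.4%), 4100001 to 4200000 (25.8% and 6.65%) and 10600001 to 10700000 (38.4% and 21.3%). None of these 5 was rich or poor in both replicates.

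**Figure D3:**
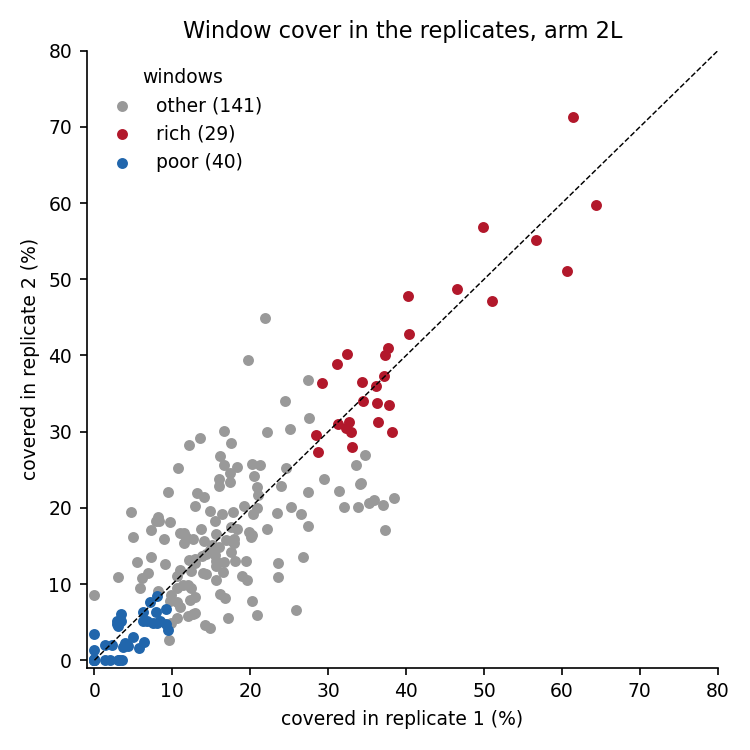
Cover of each of the 210 windows of arm 2L in replicate 1 (horizontal axis, percent) against replicate 2 (vertical axis, percent), where the dashed line marks equal cover. The 29 rich windows (red) and the 40 poor windows (blue) lie at opposite ends, and 141 windows (grey) lie between them or off the line.

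Base by base the replicates were less alike than by window. They shared 1.82 Mb, which was 8.66% of the sequence, while 26.5% was covered in at least 1 replicate, a Jaccard index (bases in both over bases in either) of 0.326. The index was 0.360 on 3L and 0.370 on 3R. Of the bases of replicate 1 on 2L, 48.7% were covered in replicate 2, and of those of replicate 2, 49.7% in replicate 1. At least 1 bp of the other replicate was met by 891 of 1484 regions of replicate 1 (60.0%, against 64.2% on the 3 arms) and by 906 of 1516 regions of replicate 2 (59.8%, against 63.8%). The index was 0.455 within rich windows, 0.191 within poor windows and 0.281 in the others. More cover raises the index by itself, and this part was not separated.

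Long regions recurred more often than short ones. Among the longest 25% of the regions of replicate 1, 86.0% met a region of replicate 2, against 45.3% of the shortest 25%. In replicate 2 the shares were 85.2% and 44.3%. Of the regions of at least 5 kb, 97 of 101 in replicate 1 (96.0%) and 86 of 88 in replicate 2 (97.7%) were met by the other replicate. A longer region offers more bases for an overlap, so the shares do not measure reliability alone. Regions without a partner also scored slightly lower, with medians of 0.62 against 0.65 in replicate 1 and of 0.58 against 0.61 in replicate 2.

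**Figure D4:**
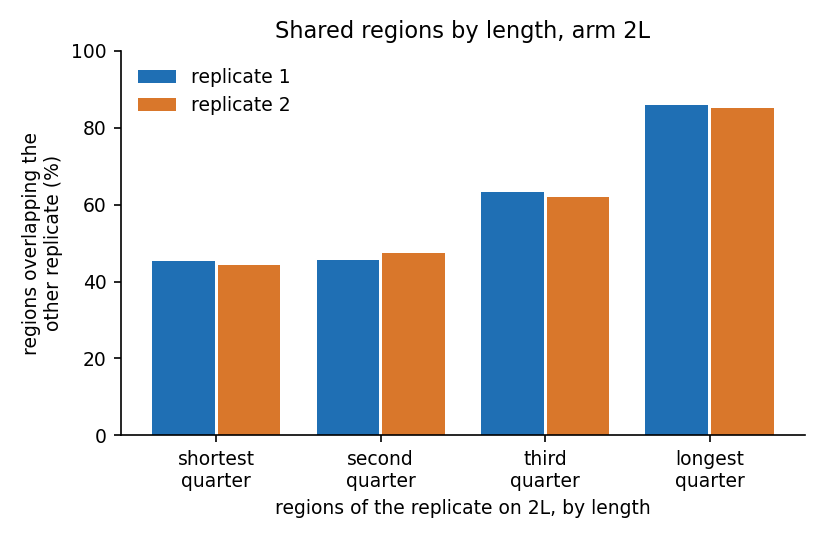
Share of the regions of each replicate on arm 2L that overlap a region of the other replicate by at least 1 bp (percent, bars from 0), with regions grouped by length into 4 equal groups. The shares for the shortest and longest groups are 45.3% and 86.0% in replicate 1, and 44.3% and 85.2% in replicate 2.

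Broad domains were taken as the regions of at least 10 kb in the series' list. Arm 2L held 112 of them among 2649 regions, or 4.23%, against 5.17% on the 3 arms, with 153 on 3L and 172 on 3R. They made up 20.3% of the bases of the series' regions on 2L, against 25.1% on 3L and 25.7% on 3R. Their median length was 13197 bp, and 20 had at least 20 kb. Their median score was 0.58, against 0.43 for the shorter regions of the series' list. The replicates themselves listed 11 and 10 regions of that length, so a broad domain is mostly a row of shorter regions in each replicate, with a median of 3 in both. All but 1 of the 112 were touched by both replicates, and the other by 1 of them. By comparison, 676 of the 2649 regions of the series' list on 2L (25.5%) touched both. Domains offer many bases for an overlap, so this count does not measure reliability alone. The median cover of a domain was 67.6% in replicate 1 and 67.7% in replicate 2, and 70 of the 112 were covered by over 50% in both. By midpoint, rich windows held 55 of the domains, poor windows none and the other windows 56, while 1 lay beyond the last full window. Of all regions of the series' list, 14.0% lay in rich windows. As windows were ranked by cover, which such domains raise, these counts are a description.

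The longest domain of the arm spanned 60009 bp, from 626677 to 686685, within the window of the highest mean cover. Another domain, from 603876 to 626628 (22753 bp), ended just before it, so this length depends on where the list splits its calls. The longest domain was covered to 76.4% in replicate 1 by 6 regions and to 87.8% in replicate 2 by 11, and its score in the series' list was 0.71. It held the longest region of replicate 1, of 32256 bp (636228 to 668483), 91.8% of which replicate 2 covered. The next domain had 48791 bp, from 4485956 to 4534746, and was covered to 89.4% and 75.5% with a score of 0.82. It overlapped the second and the fifth longest regions of replicate 1 (4482390 to 4508761 and 4514458 to 4530114), and the longest of replicate 2 (4490660 to 4510278, 19619 bp) lay within it. A domain of 25860 bp followed at 4545233 to 4571092, with 85.5% and 82.5%. The rich pair from 4500001 to 4700000 rests in part on these domains.

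The rich pair from 5100001 to 5300000 held the highest-scoring long domain. The domain from 5117288 to 5145029 (27742 bp) had the highest score among the 10 longest, 0.86, and was covered to 77.8% and 91.0%. The region of replicate 1 within it, from 5121799 to 5139533, scored 1.11, and that of replicate 2, from 5125768 to 5144969, scored 0.93. A second long region followed at 5153596 to 5171487 in replicate 1 (17892 bp, score 0.98) and at 5155775 to 5171396 in replicate 2 (15622 bp, score 0.83), where replicate 1 covered 100% of the region of replicate 2. Farther along this pair of windows the domain from 5237565 to 5270627 (33063 bp) was covered to 76.8% and 85.6%. Its region in replicate 2 from 5244065 to 5259004 was among the 5 longest there. It is the last of the 10 longest before the poor block that starts at 5300001.

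The remaining domains among the 10 longest lay elsewhere on the arm. The domain from 14284288 to 14323406 (39119 bp), inside the rich block, was covered to 73.4% and 77.2%, and the one from 11013599 to 11037724 (24126 bp) to 81.9% and 70.9%. Distally, the domain from 312730 to 343594 (30865 bp) was covered to 74.5% and 63.2%. The domain from 5851257 to 5879652 (28396 bp), beyond the 4-window poor block, was covered to 59.6% and 48.6%. Its cover was the lowest of the 10 in replicate 2 and in the mean, though not in replicate 1. It also had the lowest score of the 10, 0.51. The replicates differed most at 20315506 to 20340538 (25033 bp), with 54.7% against 77.6%. The fifth longest region of replicate 2, from 15731526 to 15745707 (14182 bp), was covered to 81.9% by replicate 1 and lay outside the 10 longest domains.

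**Figure D5:**
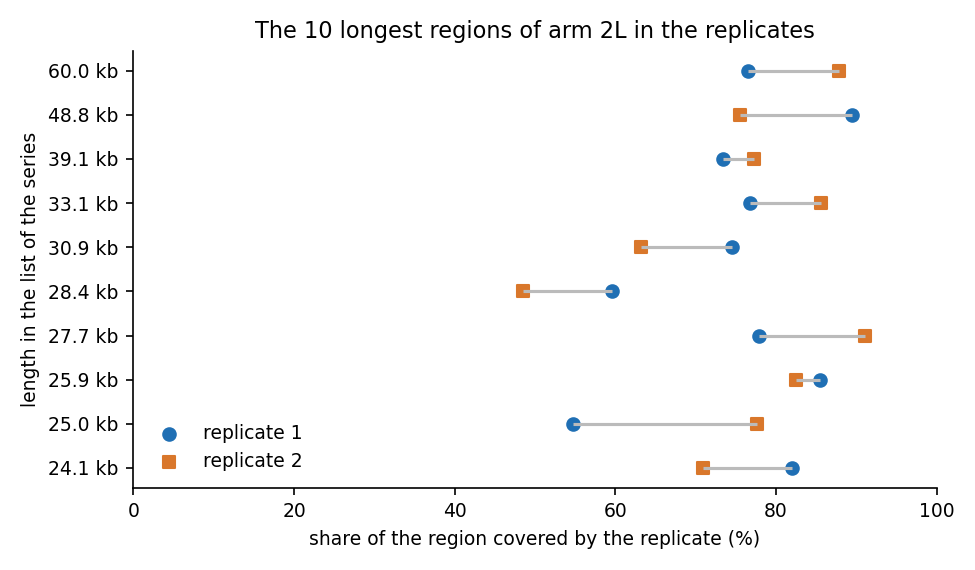
Share of each of the 10 longest regions of arm 2L in the series' list that is covered by replicate 1 (circles) and replicate 2 (squares), in percent, ordered by length. The shares lie between 48.6% and 91.0%, and no replicate is higher throughout.

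In the series' list longer regions tended to score higher, with a Spearman's rho of 0.481 between score and length over its 2649 regions on 2L, given as a description. The 5 highest scores were an exception. The 5 highest scores on 2L were 2.40 (4541903 to 4542903), 1.89 (17951948 to 17953007), 1.45 (13241914 to 13242922), 1.19 (5176030 to 5178012) and 1.14 (20154160 to 20155181), in regions of 1001 to 1983 bp. Neither replicate listed a region at any of them. Their ratios were 6 to 1, 21 to 5, 28 to 9, 70 to 27 and 5 to 2 if the terms are read numbers, with counting errors between 0.33 and 1.56 on the log2 scale. All except the one of 1983 bp fell below 1301 bp, the least length found on 2L in the replicates.

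Enriched regions lay on both sides of the boundary set at 2 Mb from the end of the arm. The last 100 kb inside it were covered to 20.1% in replicate 1 and 28.5% in replicate 2, and the first 100 kb outside it to 30.8% and 31.9%. The regions beyond the boundary, 134 in replicate 1, 153 in replicate 2 and 206 in the series' list, were not used.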

How the data were processed

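H3K27me2 ChIP-seq of fly head nuclei was analysed from 3 deposited region lists (both ChIP replicates and the series). The authors deposited a score for each region without a stated scale. Per the submitters' processing notes, Bowtie 0.12.7 was used. How regions were called, at which threshold, how the inputs entered and how the series' list was built is not given in the sources used here. Coordinates are those of FlyBase release 5, per the file headers. The only gene table at hand follows release 6, so its coordinates were not used and no sequence is shown.

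Cover was counted base by base in Python 3.11.15 with numpy 2.4.6 and pandas 2.3.3, leaving out the 2 Mb of each arm nearest the centromere and clipping the few regions that cross this boundary. Full 100-kb windows and 3-Mb segments start at the distal end of each arm. As release 5 numbers 3R from the centromere, its positions were counted from the other end, a choice made after first values were seen. Overlap needs at least 1 bp. Score terms were searched with denominators up to 20000 and a relative tolerance of 1e-12. The functions were tested on simulated data. With 1 group of 2 replicates and no list for the inputs, no test between groups was possible, and values are given per replicate or as mean ± SD. Depth is unknown, as library totals are absent from the lists.

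Named were the 10 longest and 5 highest-scoring regions of the series, the 5 longest per replicate, the 10 richest and 10 poorest windows, the 5 longest gaps, all blocks, and the 5 windows in which the replicates differed most. Pairs of rich neighbours, the segments and the domain next to the longest were added after seeing the data. The arm, rules and lists were chosen with earlier results of these data known. Alternatives were other windows, thresholds, scores, merging within 1 kb, another boundary, the list of the series, and either replicate alone.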

Additional observations from a re-analysis of the deposited data

How the results depend on the processing

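No paired analysis was possible because the comparisons are within 1 group, and the inputs, numbered like the ChIP libraries, have no values here. Regions above the median score alone gave a 2L cover of 8.90%, a difference from 3L and 3R of -1.81 percentage points, a Jaccard index of 0.248, 43.1% shared regions and a window r of 0.777. Merging regions less than 1 kb apart gave 18.2%, -2.83, an index of 0.339 and 247 domains. The series' list gave 41.2%, -2.32 and 45 rich windows. Without the last 3 Mb the index was 0.325 and r 0.850. Windows of 50 kb gave 58 rich and 77 poor of 420 with r 0.810, windows of 200 kb 14 and 26 of 105 with r 0.870, and a shift by 50 kb r 0.829. With 3R counted from base 1, added after seeing the data, the difference was -2.30. A reciprocal overlap of 50% left 30.6% shared regions. Domains numbered 20 at 20 kb or more, and 11 and 10 in the lists of replicates 1 and 2. Leaving out a replicate gave 17.4% to 17.8% cover, differences of -2.71 to -2.52, 40 to 42 rich and 57 to 58 poor windows. The sign of the difference was negative in all 7 alternatives tried for it, and the cause of the moves was not tested. Counts at other window sizes are out of other totals, and the index and r have no replicate spread to set a change against. Every SD rests on 2 replicates, and the depth of the libraries is unknown.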

Other observations

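Where 1 region of each replicate met exactly 1 of the other on 2L (532 pairs), their starts differed by a median of 595.5 bp and their ends by 578.5 bp, and 44.7% of the starts and 46.6% of the ends lay within 500 bp of each other. The shorter region of a pair was covered to 94.1% in the median. Over all 1061 overlapping pairs the scores had a Spearman's rho of 0.231 and a Pearson r of 0.277, given as a description.

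In the series' list, 676 regions of 2L (25.5%) touched both replicates, 909 (34.3%) touched 1 and 1064 (40.2%) touched neither. Those touching neither were 1409.5 bp long and scored 0.40 in the median, against 5135 bp and 0.50 for those touching both. Of the regions that touched neither, 443 fell below 1301 bp, the least length in the replicates. The series' list held 96.5% of the covered bases of replicate 1 and 98.4% for replicate 2, and 60.7% of its own bases in poor windows lay in neither replicate, against 23.1% in rich windows.

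Cover changed sharply at some borders between windows. The median step between neighbours was 8.65 percentage points. The largest rise was at 0.6 Mb, where replicate 1 went from 14.2% to 61.4% and replicate 2 from 4.58% to 71.3%. The largest drop was at 14.0 Mb, from 60.6% to 9.17% and from 51.1% to 4.79%. A rich and a poor window were direct neighbours in 10 places, with 29 rich and 40 poor windows among 210. The number that these class sizes alone would give was not worked out, so the count is no measure of sharp borders.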
